A study of Homo sapiens with 6 samples.

Results

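Interleukin receptor genes were examined in IMR90 cells, a line of primary human fetal lung fibroblasts, by RNA sequencing of 6 libraries. The 10 genes, chosen by symbol, make up the group: IL1R1, IL1RAP, IL1RL1, IL6ST, OSMR, LIFR, IL11RA, IL4R, IL13RA1 and IL13RA2. They are 10 of the 57659 genes in the count files, and all 10 were matched by Ensembl identifier. The 3 control libraries came from cells that expressed a short hairpin RNA against luciferase, an insect enzyme that human cells lack, and the 3 knockdown libraries from cells that expressed a hairpin against macroH2A1, a histone H2A variant with a large globular domain. Both groups therefore carried a hairpin, and they differed in its target. The series calls the libraries of a group biological replicates, but the labels do not name separate cultures, so p-values measure the spread between these libraries. No hairpin sequence, number of hairpins or time after their introduction is given in the labels.

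The members were chosen with earlier results of the same knockdown and control comparison known. Their differences between the groups are therefore given as a description, and the p-values, which come from a fit of all genes, lend no independent support to the group. Levels are counts per 1000000 (CPM) over library sizes scaled with the TMM method, and a gene is said to have risen or fallen where the edgeR quasi-likelihood test gave a Benjamini-Hochberg adjusted p under 0.05 over all 13445 genes tested.

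Interleukin receptors are assembled from chains. A ligand-binding chain is joined by an accessory chain, and only the assembled complex signals. IL1R1 binds interleukin-1 and IL1RL1 (ST2) binds interleukin-33, and both need the accessory protein IL1RAP to recruit the adaptor MYD88 and activate NF-kappaB. IL6ST (gp130) is the shared signalling chain of the interleukin-6 family, with OSMR, LIFR and IL11RA as partners for oncostatin M, leukaemia inhibitory factor (LIF) and interleukin-11, and it signals through JAK kinases and STAT3. IL4R pairs with IL13RA1 to bind interleukin-4 or interleukin-13 and signals through STAT6, while IL13RA2 binds interleukin-13 with high affinity and is known as a decoy. In lung fibroblasts these receptors are known for their part in inflammation and fibrosis.

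IL1R1 and IL4R were the 2 members that rose, and IL1RL1 was at the limit of detection, so the upstream sequences of these genes are shown, with that of OSMR as a well-expressed member that did not pass the test. Each is the 250 bases before a transcription start in RefSeq on GRCh38.p14, 5′ to 3′ on the gene's strand, with every CG dinucleotide in capitals. For IL1R1 the table holds 4 starts, and the first of the gene and the one richest in CG are both given.
IL1R1, first start, chr2:102104354-102104603 (+): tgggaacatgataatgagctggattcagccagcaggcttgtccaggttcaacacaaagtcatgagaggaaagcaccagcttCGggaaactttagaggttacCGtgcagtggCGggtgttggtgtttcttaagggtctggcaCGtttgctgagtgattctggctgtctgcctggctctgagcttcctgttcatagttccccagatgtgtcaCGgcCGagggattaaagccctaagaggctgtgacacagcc
IL1R1, start richest in CG, chr2:102142496-102142745 (+): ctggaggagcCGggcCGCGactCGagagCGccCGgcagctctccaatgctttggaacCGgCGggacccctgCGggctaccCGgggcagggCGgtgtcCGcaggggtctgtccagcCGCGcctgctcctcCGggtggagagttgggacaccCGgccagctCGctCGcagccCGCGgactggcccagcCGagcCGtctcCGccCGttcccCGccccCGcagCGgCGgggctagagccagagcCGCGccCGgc
IL4R, chr16:27313724-27313973 (+): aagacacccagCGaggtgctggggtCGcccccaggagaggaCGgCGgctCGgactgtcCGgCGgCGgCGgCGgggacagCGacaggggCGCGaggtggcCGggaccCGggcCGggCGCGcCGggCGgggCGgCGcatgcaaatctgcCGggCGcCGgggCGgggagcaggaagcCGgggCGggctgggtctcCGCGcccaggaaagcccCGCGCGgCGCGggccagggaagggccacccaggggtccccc
OSMR, chr5:38845762-38846011 (+): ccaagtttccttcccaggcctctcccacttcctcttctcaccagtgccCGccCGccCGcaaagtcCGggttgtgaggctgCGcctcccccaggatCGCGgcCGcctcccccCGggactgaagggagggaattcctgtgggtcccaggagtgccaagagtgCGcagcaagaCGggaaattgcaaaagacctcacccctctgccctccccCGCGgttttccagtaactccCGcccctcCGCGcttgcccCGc
IL1RL1, start with more CG, chr2:102311313-102311562 (+): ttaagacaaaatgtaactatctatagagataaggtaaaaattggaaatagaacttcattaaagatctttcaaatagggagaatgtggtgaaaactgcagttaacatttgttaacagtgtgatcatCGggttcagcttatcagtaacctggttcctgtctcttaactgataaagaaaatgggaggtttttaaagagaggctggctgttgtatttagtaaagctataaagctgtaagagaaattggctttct

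These windows held 6, 31, 35, 17 and 1 CG dinucleotides in the order shown. The median over 35116 RefSeq windows of this kind was 11, with quartiles at 3 and 23. The 2 members that rose thus had a start in a CG-rich window, but so did members that did not pass: IL1RAP had 33 CG dinucleotides, IL6ST 31, IL13RA1 28 and LIFR, at its richest start, 44. IL11RA had 11 at the richer of its starts. In all, 9 of the 10 members had an entry, with 16 windows between them, and IL13RA2 was not matched. Reads were counted per gene, so the counts cannot be split between the starts of IL1R1, LIFR, IL11RA or IL1RL1.

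Both strands of the windows were also searched for short motifs. TGANTCA, bound by AP-1, was in 1 of the 16 members' windows and in 6.57% of all windows. TTCNNNGAA, bound by STAT factors, was in 3 and in 6.57% of all, and the STAT6 form, with 4 bases of any kind between TTC and GAA, was in 0 and in 5.38%. The NF-kappaB motif, GGGA and TTTCC with any 1 base between, was in 0 and in 0.527%, and TATAAA was in 3 and in 10.7%. The STAT motif lay in the windows of IL1R1 (1 of 4) and LIFR (2 of 3), and the AP-1 motif in the other IL1RL1 window. A match describes these letters and is not evidence of binding.

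The libraries held 3741087 to 6421605 counts assigned to genes, and 3 counts in a library correspond to 0.467 to 0.802 CPM before TMM scaling. The hairpin's target MACROH2A1 fell from 88.3 ± 3.62 to 40.9 ± 2.51 CPM (SD, n = 3 per group; edgeR adjusted p = 0.000917). Of the markers of fibroblasts fixed for the label check, all 11 had counts, and their summed level was 7504 to 8563 CPM in the control and 12000 to 12740 CPM in the knockdown. Of 10 tested, 5 rose (COL1A2, COL3A1, DCN, LUM and PDGFRA) and 0 fell. Endothelial markers summed to 67.4 to 72.5 CPM and 143 to 149 CPM, with PECAM1 at 0 counts. Of 3 tested, KDR and TEK rose, while FLT1 differed by -0.42 on the log2 scale without passing (edgeR adjusted p = 0.327). TEK made up most of both sums, at means of 62.3 and 132 CPM. KDR had 5 control and 111 knockdown counts, with every control library under 3 counts. VWF, not tested, had 17 control and 8 knockdown counts, and CDH5, TIE1 and CLDN5 had at most 1 in each group. Epithelial markers summed to 27.4 to 29.7 CPM and 7.12 to 11.8 CPM, with SFTPB at 0, and KRT18 fell (log2 fold change -1.59, edgeR adjusted p = 0.0108). Blood cell markers summed to 38.8 to 42.6 CPM and 29.3 to 35.7 CPM, with CD3E, TPSB2 and HPGDS at 0, and KIT fell (log2 fold change -0.63, edgeR adjusted p = 0.0444). The share of listed reads that fell outside annotated features was 8.34% to 9.43% in the control and 10.6% to 11.3% in the knockdown. The part of these shifts in the receptor results was not tested. In bulk RNA, more cells that express a gene cannot be told apart from more RNA per cell.

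Of the 10 members, 8 passed the filter on low counts and were tested. Of these, 2 rose and 0 fell, where 8.21% of all genes tested were called, 3.90% higher and 4.31% lower. At an unadjusted p under 0.05 the number was 5 of 8, all with positive fold changes, where 24.6% of all genes tested (3301) had such a p, 1616 of them with a positive fold change. DESeq2 and limma-voom also called 2 higher and 0 lower. The groups did not overlap for 6 of the 8, against 30.4% of all genes tested. The median log2 fold change of the 8 was 0.22, and that of all genes tested 0.01. With 3 libraries against 3, an exact two-sided permutation test of a single gene cannot give a p below 0.1, the value that all 6 members without overlap reached.

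**Figure D1:**
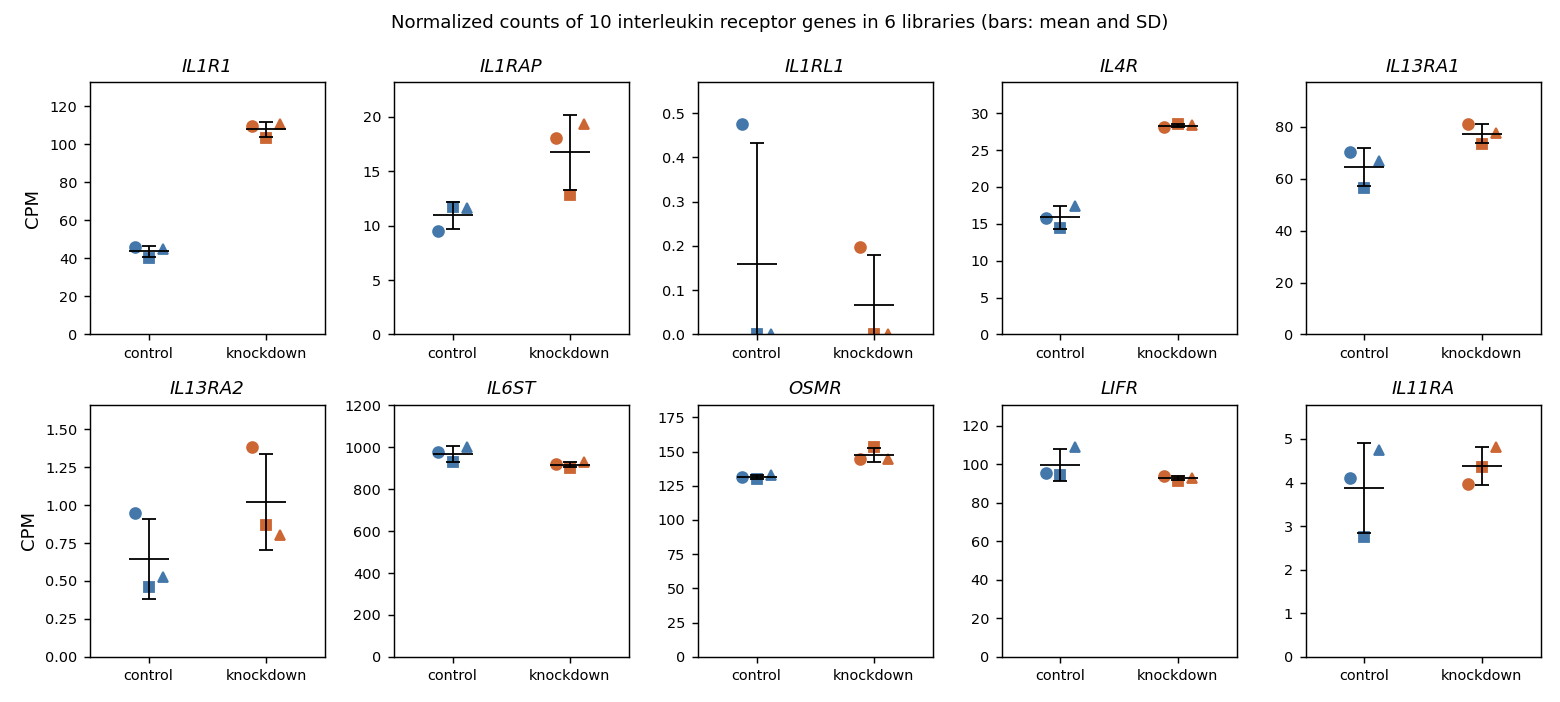
Normalized counts (CPM, linear axis from 0) of the 10 members in each library, control in blue and knockdown in orange, with circles, squares and triangles for replicates 1, 2 and 3 and bars for the mean and SD. The 3 knockdown libraries lie above all 3 control libraries for IL1R1, IL4R, IL1RAP, IL13RA1 and OSMR and below them for LIFR. The groups overlap for IL6ST, IL11RA, IL13RA2 and IL1RL1.

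Among the receptors of the interleukin-1 family, the ligand-binding chain rose and the accessory chain did not pass. IL1R1 (ENSG00000115594, chromosome 2) had control counts of 290, 176 and 170 and knockdown counts of 555, 476 and 413, or 45.9, 40.2 and 44.9 CPM and 110, 104 and 111 CPM. Every knockdown library stood more than 2-fold above every control library. IL1R1 thus rose 2.47-fold, between means of 43.7 ± 3.02 and 108 ± 3.89 CPM (SD, n = 3; log2 fold change 1.30, SE 0.08, edgeR adjusted p = 0.000764). The call held in all 16 alternatives, which gave 1.25 to 1.35 on the log2 scale.

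IL1RAP had 60, 51 and 44 control counts and 91, 59 and 72 knockdown counts, or 9.49, 11.7 and 11.6 CPM and 18.0, 12.8 and 19.3 CPM. The groups were apart, but knockdown replicate 2 lay close to the controls. The log2 fold change was 0.62 (SE 0.19, 95% interval 0.16 to 1.07, edgeR adjusted p = 0.103). IL1RAP passed when only the genes of the authors' table were tested (adjusted p = 0.0150), and in the authors' deposited table itself it had a log2 ratio of 0.62 with an adjusted p of 0.0438.

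IL1RL1 was barely detected. It had 3 counts in control replicate 1, 1 in knockdown replicate 1 and 0 in the other 4 libraries. Both groups were at or under the floor of 3 counts per group, so no fold change is given. IL1RL1 shares 95 exonic bases with IL18R1 on the same strand in GENCODE 29, and reads in such bases are not assigned in union mode.

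IL1R1 and IL1RL1 belong to a cluster of related receptor genes on chromosome 2 that also holds IL1R2, IL1RL2, IL18R1 and IL18RAP. IL1R2, a decoy receptor for interleukin-1, had 0 control counts and 1 knockdown count. IL1RL2, the receptor for interleukin-36, had 1 and 6. IL18R1, a chain of the interleukin-18 receptor, had control counts of 7, 7 and 4 and knockdown counts of 21, 11 and 6, and its partner IL18RAP had 0 in every library. None of these 4 passed the filter of the main fit, so IL1R1 was the one gene of the cluster tested there. The IL18R1 groups did not overlap, but knockdown replicate 3 at 1.607 CPM lay next to control replicate 2 at 1.6 CPM.

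Of the chains for interleukin-4 and interleukin-13, IL4R (ENSG00000077238, chromosome 16) rose. It had 100, 63 and 66 control counts and 142, 131 and 106 knockdown counts, or 15.8, 14.4 and 17.4 CPM and 28.1, 28.5 and 28.4 CPM. The 3 knockdown libraries lay within 0.5 CPM of each other and well above the controls. At such counts the counting error alone is larger than that spread, so the closeness does not measure precision. IL4R thus rose 1.78-fold, between means of 15.9 ± 1.52 and 28.3 ± 0.210 CPM (SD, n = 3; log2 fold change 0.83, SE 0.10, edgeR adjusted p = 0.00489). The SE and p draw on this spread too, so both may overstate the precision of the rise. This call, too, held in all 16 alternatives, at 0.77 to 0.90 on the log2 scale.

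IL13RA1, its partner, had 444, 247 and 253 control counts and 409, 338 and 290 knockdown counts. That corresponds to 70.2, 56.5 and 66.9 CPM and 80.9, 73.5 and 77.7 CPM. The highest control library was close to the lowest knockdown library. The log2 fold change of 0.26 (SE 0.10, 95% interval 0.03 to 0.50) did not pass (edgeR adjusted p = 0.163), except when only genes of the authors' table were tested (adjusted p = 0.0318). In the authors' deposited table the log2 ratio was 0.27 and the adjusted p 0.0898. IL13RA2 had 6, 2 and 2 control counts and 7, 4 and 3 knockdown counts, too few to pass the filter. The ratio of its summed counts was 1.51, with an exact 95% counting interval of 0.626 to 3.81, so a change of either sign within these bounds was not detectable at this depth.

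None of the 4 genes of the gp130 family passed in the main fit or in any of the 16 alternatives, and 1 of them, OSMR, had an unadjusted p under 0.05. IL6ST was the most abundant member, with control libraries at 980, 928 and 1003 CPM and knockdown libraries at 921, 904 and 931 CPM. The groups overlapped, and the 95% interval of the log2 fold change was -0.26 to 0.10 around -0.08 (SE 0.08, edgeR adjusted p = 0.580). This interval excludes a change of the size seen for IL1R1 or IL4R.

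OSMR stood at 132, 130 and 133 CPM without and 144, 154 and 145 CPM with the knockdown. The groups did not overlap, but the difference was small, 0.16 on the log2 scale (SE 0.06, edgeR adjusted p = 0.173). LIFR lay between 94.7 and 109 CPM in the control and between 91.6 and 93.8 CPM in the knockdown, a difference of -0.10 on the log2 scale (SE 0.08, edgeR adjusted p = 0.483). IL11RA, the chain that binds interleukin-11, had 26, 12 and 18 control counts and 20, 20 and 18 knockdown counts. Its interval was the widest of the tested members, from -0.45 to 0.79 around a log2 fold change of 0.17 (edgeR adjusted p = 0.751), and the value was -0.02 without control replicate 2.

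**Figure D2:**
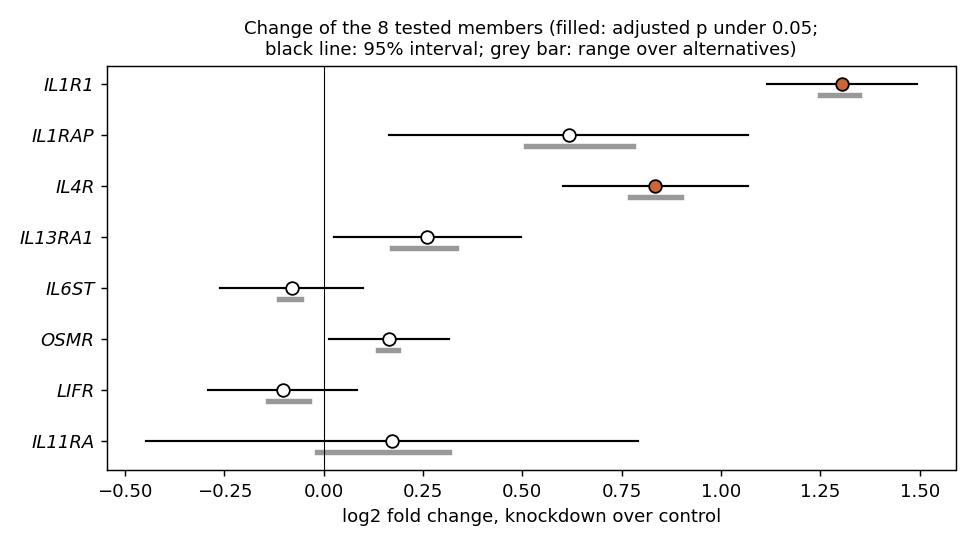
Log2 fold change of the 8 tested members, knockdown over control, with the 95% interval of the edgeR fit (black line) and the range over the 16 alternative settings (grey bar); filled points have an adjusted p under 0.05. IL1R1 at 1.30 and IL4R at 0.83 are the filled points, and the gp130 family lies near 0.

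Some members share exonic bases with other genes in GENCODE 29. IL6ST shares 797 bases with ENSG00000262211, OSMR 229 with RICTOR and LIFR 629 with LIFR-AS1, all on the opposite strand. IL11RA shares 334 with GALT and 410 with ENSG00000258728, both on the same strand. Whether counting used strand is not stated, and reads in these stretches may be missing from the members' counts. RICTOR had 1557 control and 1401 knockdown counts, ENSG00000262211 had 41 and 44, and LIFR-AS1 had 13 in each group. For IL1R1 the shared stretch was 11 bases. IL1RAP and IL4R share 535 and 339 bases with genes that were not among those counted.

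Levels of different members were compared per kilobase of their longest coding transcript in GENCODE 29. In the control, IL6ST came first at 107 ± 4.24 CPM per kilobase, followed by OSMR at 23.8 ± 0.281 and IL13RA1 at 16.0 ± 1.78. LIFR had 9.88 ± 0.809, IL1R1 8.49 ± 0.587, IL4R 4.31 ± 0.413, IL1RAP 2.02 ± 0.230 and IL11RA 1.29 ± 0.342 CPM per kilobase. IL13RA2 and IL1RL1 came last, below 1 CPM per kilobase. No 2 neighbours in this order had overlapping control libraries, but LIFR and IL1R1 differed by only 1.16-fold.

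In the knockdown, IL1R1 stood at 21.0 ± 0.756 CPM per kilobase and moved from the fifth to the third place, behind OSMR at 26.6 ± 0.940. IL4R stayed in the sixth place at 7.69 ± 0.0571 CPM per kilobase. The order depends on the transcript length used: with the median coding transcript length, 3 of the 10 members took another rank in the control, IL4R among them.

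**Figure D3:**
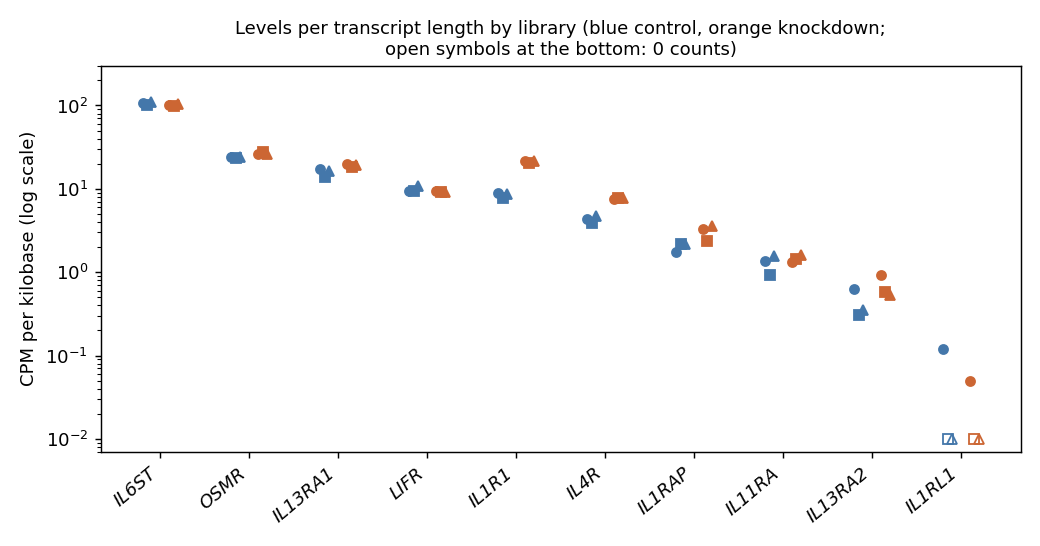
Level per kilobase of the longest coding transcript (CPM per kilobase, log axis) in each library, members ordered by their control mean; open symbols at the bottom are libraries with 0 counts. IL6ST is highest at about 107 CPM per kilobase, and IL1R1 shows the widest gap between control and knockdown among the tested members.

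Ratios of CPM per kilobase between chains that form one receptor, or share one, were taken within each library, so that library size cancels. The ratio of IL1R1 to IL1RAP was 5.09, 3.63 and 4.07 without the knockdown and 6.42, 8.49 and 6.04 with it. The ratio of IL4R to IL13RA1 was 0.247, 0.279 and 0.286 against 0.380, 0.425 and 0.400. The ratio of OSMR to LIFR, which both pair with IL6ST, was 2.51, 2.50 and 2.22 against 2.81, 3.06 and 2.83. In these 3 pairs every knockdown library was above every control library. The ratios with IL1R1 and IL4R partly restate the rises of those genes, so they are not separate results. No background share was computed for ratios; among single genes tested, 30.4% had groups without overlap.

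For IL6ST to LIFR the groups overlapped, with controls between 10.2 and 11.4 and knockdown libraries between 10.9 and 11.1. They also overlapped for IL6ST to IL11RA, at 87.2 ± 22.3 and 70.1 ± 6.67 (SD, n = 3 per group). The ratio of IL6ST to OSMR was 4.51 ± 0.128 and 3.81 ± 0.184, without overlap. Of 6 ratios computed, 4 reached 0.1, the smallest p that the exact two-sided permutation test allows here, so none could pass the threshold. The ratios of RNA do not give the ratios of receptor chains at the cell surface.

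**Figure D4:**
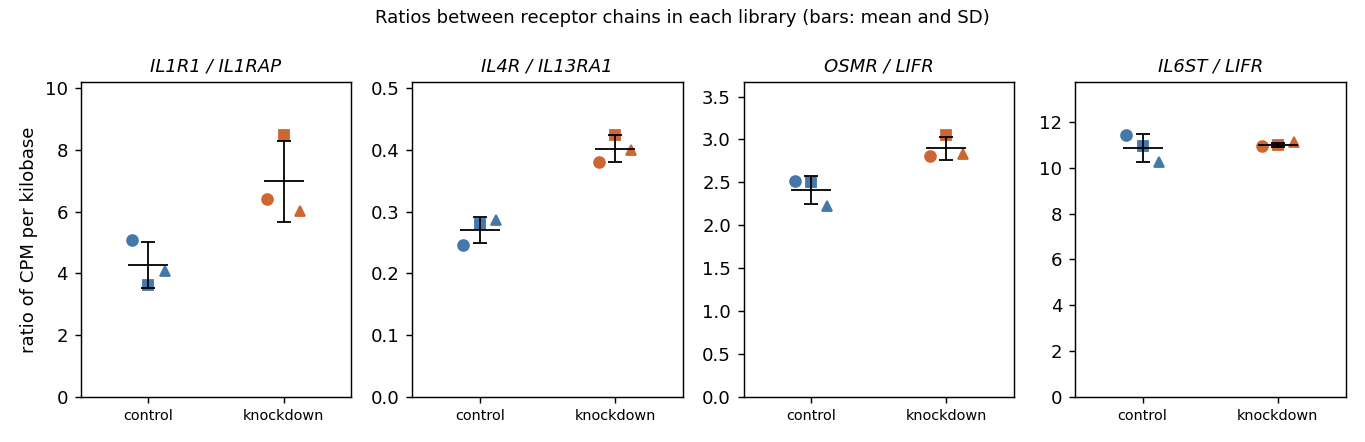
Ratio of CPM per kilobase between 2 receptor chains in each library, with bars for the mean and SD, n = 3 per group. The knockdown libraries lie above the controls for IL1R1 to IL1RAP, IL4R to IL13RA1 and OSMR to LIFR, and overlap them for IL6ST to LIFR.

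Other genes of the pathways were taken from 9 lists, in all 181 genes, of which 178 were matched and 100 tested. Of the 100, 9 rose and 7 fell, where 8.21% of all genes tested were called, and the median log2 fold change was -0.01. These counts fell when any 1 library was left out. Without control replicate 1, 2 and 3, 3, 1 and 1 genes were called higher and 3, 2 and 3 lower. Without knockdown replicate 1, 2 and 3, 1, 4 and 6 were called higher and 4, 4 and 3 lower. Calls over all genes fell too, from 524 higher and 580 lower to 225 to 303 and 198 to 262. When only genes of the authors' table were tested, 18 were called higher and 11 lower, beside 1020 and 1022 of all 10478 genes tested there.

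Of 48 other cytokine receptor genes, 15 had no counts in any library, among them IL2RA, IL2RB, IL2RG and CSF2RB, which are typical of blood cells. Of 13 tested, 0 rose and 1 fell. IL7R, the interleukin-7 receptor, stood at 84.5, 78.7 and 78.5 CPM in controls against 42.1, 46.1 and 35.9 CPM after knockdown. It fell, with no overlap between groups (log2 fold change -0.96, SE 0.10, edgeR adjusted p = 0.00365), and it was called in all 16 alternatives. The interferon receptor chains IFNAR1 and IFNGR2, with log2 fold changes of -0.23 and -0.25, did not pass (edgeR adjusted p = 0.138 and 0.176).

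Ligands of the members and of related receptors were few. Of 24 listed, 10 had no counts, including IL4, IL13, OSM and IL1RN, the receptor antagonist of interleukin-1, and 5 were tested. LIF fell, with means of 79.7 ± 9.03 and 59.9 ± 1.76 CPM (SD, n = 3; log2 fold change -0.41, edgeR adjusted p = 0.0480), a call that was lost in 12 of 16 alternatives. IL6 had a log2 fold change of -0.63 (edgeR adjusted p = 0.0720) and IL11 one of 0.46 (edgeR adjusted p = 0.121). Both passed when only genes of the authors' table were tested (edgeR adjusted p = 0.0397 and 0.00774). The median of the 5 was -0.41, and they include TSLP at -0.74, which is a ligand of no member. IL1A had 0 control and 3 knockdown counts, and IL33 5 and 6.

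Of 14 tested JAK, STAT and adaptor genes, STAT5B rose 1.39-fold and PTPN11, the phosphatase SHP2 that gp130 recruits, was 1.34-fold lower (edgeR adjusted p = 0.0370 and 0.0150). JAK1, a kinase bound to gp130, had a log2 fold change of 0.06 and did not pass (edgeR adjusted p = 0.699). The STAT5B call was lost in 9 of 16 alternatives and the PTPN11 call in 6. Of 12 tested inhibitors of the pathway, SOCS3, a feedback inhibitor that STAT3 induces, rose, with means of 43.9 ± 4.11 and 68.0 ± 9.80 CPM (SD, n = 3; edgeR adjusted p = 0.0316), a call lost in 6 of 16 alternatives, and 0 fell. SOCS5 and PTPN1, a phosphatase that acts on JAK kinases, had log2 fold changes of -0.16 and 0.01.

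Of 27 tested genes that carry the interleukin-1 signal, 3 rose and 2 fell. IRAK3, an inhibitory member of the IRAK family, rose 2.41-fold, TAB1, an activator of the kinase encoded by MAP3K7, 1.96-fold and PELI2, a ubiquitin ligase, 1.48-fold (edgeR adjusted p = 0.0448, 0.0279 and 0.0183). IRAK1, a kinase recruited through MYD88, was 1.43-fold lower (edgeR adjusted p = 0.0106), as was NFKBIA, the inhibitor of NF-kappaB, at 1.41-fold lower (edgeR adjusted p = 0.0380; named after its value was seen). MAP3K7 and NFKBIZ, with log2 fold changes of -0.05 and 0.10, did not pass. The calls of IRAK3, TAB1 and NFKBIA were each lost in 8 of 16 alternatives, that of PELI2 in 4 and that of IRAK1 in 2. Those of TAB1 and NFKBIA were lost without any 1 of the 6 libraries.

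Known targets of the receptors went both ways. Of 9 tested NF-kappaB targets, TNFAIP6 and VCAM1, an adhesion molecule, rose 2.39-fold and 1.65-fold, and BIRC3, an inhibitor of apoptosis, was 4.06-fold lower (edgeR adjusted p = 0.0132, 0.00764 and 0.0208). The chemokine CCL2 and the bradykinin receptor BDKRB1 had log2 fold changes of -0.07 and 0.07. Of 11 tested STAT3 targets, FGL2, SOCS3 and CEBPD rose, by 1.79-fold, 1.55-fold and 1.45-fold (edgeR adjusted p = 0.0225, 0.0316 and 0.0294), 0 fell, and the median log2 fold change was 0.36; MCL1 and TIMP1 had -0.12 and 0.18. Of 4 tested STAT6 targets, TGM2, transglutaminase 2, was 1.61-fold lower (edgeR adjusted p = 0.00303), and POSTN and MAOA had log2 fold changes of 0.21 and 0.82 without passing. MAOA did pass when only genes of the authors' table were tested. Of these calls, BIRC3, SOCS3 and CEBPD were each lost in 6 of 16 alternatives and FGL2 and TNFAIP6 in 4, while VCAM1 and TGM2 were called in all 16.

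None of 7 tested genes that shed or process receptors passed in the main fit. Among them ADAM10, the protease that sheds several interleukin receptors, differed by -0.23 on the log2 scale (SE 0.07, edgeR adjusted p = 0.104) and NCSTN, a subunit of gamma-secretase, one of -0.07. At an unadjusted p under 0.05 there were 2 of the 7, where 24.6% of all genes tested had such a p, while DESeq2 called 0 and limma-voom 1. The gene called by limma-voom was ADAM10, which also passed when only genes of the authors' table were tested (edgeR adjusted p = 0.0323).

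**Figure D5:**
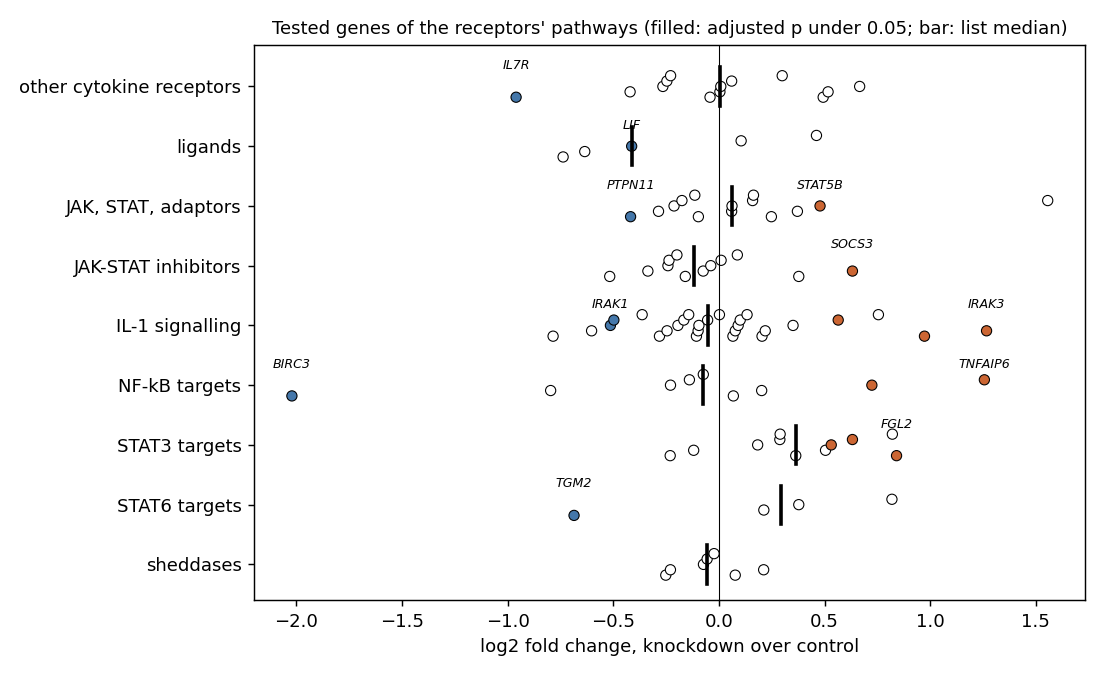
Log2 fold change, knockdown over control, of each tested gene in the 9 pathway lists (1 point per gene, spread vertically only for legibility); filled points have an adjusted p under 0.05, orange higher and blue lower, and the bar is the list median. Called genes lie on both sides of 0 in 3 lists, from BIRC3 at -2.02 to IRAK3 at 1.27.

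Likeness to IL1R1 was measured as the root mean square difference of log2(CPM + 0.5), centred on each gene, over the 6 libraries. Among 10436 other tested protein-coding genes, RASSF2 was closest at 0.0735, then PLPP3, a lipid phosphatase, at 0.0812 and ABCA8, a lipid transporter, at 0.0892. RASSF2 stood at 28.8, 26.1 and 30.9 CPM in controls and 77.9, 73.5 and 80.4 CPM after knockdown. All 3 were about as much higher in the knockdown as IL1R1, with log2 fold changes of 1.43, 1.45 and 1.21. With 2 groups of libraries, such likeness follows mainly the difference between the groups.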

How the data were processed

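Total RNA from 6 libraries was depleted of ribosomal RNA, made into strand-marked cDNA libraries and sequenced in a single lane, per the labels' protocols. The deposited files of the authors hold raw counts for each Ensembl gene, made with CASAVA 1.7, GSNAP and HTSeq on hg19, per the submitters' processing notes, in union mode by the file names. Neither annotation nor strand setting is stated. Lines that name no gene, 86.3% to 88.1% of listed reads, were left out. Per the submitters' processing notes DESeq 1.10.1 made the authors' deposited table, which holds protein-coding genes with a mean signal, a ratio (fold), its log2 and a p-value with its adjusted value.

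Groups and replicate numbers came from the titles. Genes were filtered with filterByExpr (minimum count 10), scaled with TMM and tested with edgeR 4.0.16 (R 4.3.3) by group alone; limma 3.58.1 and DESeq2 1.42.0 were alternatives. Standard errors are the log2 fold change over the square root of F. Symbols matched 47153 identifiers; lengths and overlaps came from GENCODE 29, whose build differs from hg19, so no coordinates of the counted genes are given. Upstream windows and their coordinates came from RefSeq on GRCh38.p14. Of 234 list entries, 3 were not matched. The members and lists were chosen with earlier results of these data known. From each pathway list the rule named up to 4 called genes with the largest change and the 2 uncalled genes with the highest CPM, and for the called member with the largest rise the 3 most alike protein-coding genes. A gene that this rule named is not reported here. The edgeR step was tested on simulated counts. Libraries of 1 group differed beyond sampling noise (chi-square per degree of freedom 25.2 to 37.7), so none was counted as a copy. Intervals of log2 fold changes come from the edgeR fit and include the spread between libraries. They may be too narrow where that spread lies below counting error, as for IL4R. The interval of the IL13RA2 count ratio and the floors cover counting error only.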

Additional observations from a re-analysis of the deposited data

Results flagged for a closer look

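The lines of the count files that name no gene were used in no comparison, and 2 of their shares did not overlap between the groups. Reads outside annotated features made up 10.8% ± 0.390 of the listed reads in the knockdown libraries and 8.94% ± 0.555 in the control libraries (SD, n = 3 per group). Each knockdown library was above each control library. The share of reads without a unique alignment was 65.7% ± 1.15 and 68.1% ± 0.621, also without overlap. Whether either share bears on the counts of IL1R1, IL4R or other members was not tested.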

How the results depend on the processing

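The calls of IL1R1 and IL4R were kept in all 16 alternatives: 3 scalings, 2 filters, a fit without the 20 genes of highest count, DESeq2, limma-voom, the genes of the authors' table, a replicate block and leaving out each library. With the genes of the authors' table alone, 4 members were called higher, 1020 of all genes higher and 1022 lower, and 18 and 11 pathway genes; 10478 genes were tested there instead of 13445, and the cause of the larger counts was not tested. Same-numbered libraries did not deviate together (correlations of -0.026, -0.019 and -0.172). Deviations from means of 3 libraries cannot settle whether the numbers pair them, and the labels do not say. With a replicate block 230 genes were higher and 186 lower, and 3 and 2 of the pathway genes, and no member changed its call. Without 1 library, 225 to 303 genes were higher and 198 to 262 lower, with 1 to 6 and 2 to 4 pathway genes. With the median transcript length, 3 members took another rank by control level. Depth limits IL1RL1, IL13RA2 and IL11RA most.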
